A study of Mus musculus with 6 samples.

Results

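The genes of 10 cytosolic and mitochondrial chaperones and heat shock proteins were followed in Ba/F3 cells with and without the NCOR1-LYN fusion protein. They were chosen by name, as the HSP70 genes Hspa8, Hspa1a and Hspa1b, the HSP90 genes Hsp90aa1 and Hsp90ab1, their partners Hsph1, Dnajb1 and Ahsa1, and the mitochondrial chaperonin genes Hspd1 and Hspe1. The annotation of the array named 22 probe sets for 9 of these 10 genes, out of 45101 probe sets in all, and Hsp90ab1 was not analysed here. Of the 22, 16 passed the filter on dim probe sets, a mean log2 value equal to a signal of about 41.6, and 7 of the 10 genes entered the test across 10916 genes.

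Ba/F3 is a mouse pro-B cell line that grows in interleukin 3. All 6 samples were Ba/F3 cells that carried NCOR1-LYN, a joining of the nuclear corepressor NCOR1 to the SRC family kinase LYN, under a doxycycline-inducible promoter. The 3 control samples were grown without doxycycline and the 3 NCOR1-LYN samples with it, so the drug and the fusion cannot be told apart, and no dose or time was given in the sources used here. RNA of each sample was read on 1 Affymetrix mouse expression array, and p-values measure the spread between these samples, which may be technical.

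Molecular chaperones hold other proteins in a state from which they can fold. HSP70 proteins bind short hydrophobic stretches of a client in a cycle driven by ATP, which J proteins start by raising ATP hydrolysis and which exchange factors end by releasing ADP. HSP90 takes over clients that are partly folded, among them steroid receptors and many kinases, of which viral SRC is a classic example. In the mitochondrial matrix the HSP60 barrel and its HSP10 lid enclose a client while it folds. Part of this set is made at all times, and part is raised by the transcription factor HSF1 when misfolded proteins build up, through heat shock elements, which are inverted repeats of the unit GAA.

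Promoters are shown for 2 features of the set, a start region that Hspd1 and Hspe1 share and the near-identical upstream regions of Hspa1a and Hspa1b. Whether either feature bears on the signals was not tested. Sequences are those of RefSeq for GRCm38.p6, a build used here only for these sequences and for gene positions. Of the 10 genes, 7 had a promoter window, and the motifs were searched in the 250 bases before each annotated start. Hspd1 (chr1:55077833-55088243, minus strand) and Hspe1 (chr1:55088148-55091317, plus strand) lie head to head and overlap by 96 bases at their starts. Hspd1 has 2 annotated starts, and the window of the inner one held the same 4-unit heat shock element as that of Hspe1, of the form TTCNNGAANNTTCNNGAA, which begins 89 bases before the start of Hspe1. It is in capitals within the stretch chr1:55088053-55088082, read on the plus strand.
Hspe1 and Hspd1: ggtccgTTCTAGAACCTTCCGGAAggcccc

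Elements of 4 units, in either phase (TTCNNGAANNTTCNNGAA or GAANNTTCNNGAANNTTC, each its own reverse complement), stood in 7 of 32851 promoter windows (0.0213%). Elements of 3 units (GAANNTTCNNGAA, or TTCNNGAANNTTC on the other strand), which the longer element contains, stood in 0.466% of the windows and among the 7 genes in Hspd1 and Hspe1. Elements of 2 units (GAANNTTC or TTCNNGAA, each its own reverse complement, also contained in the longer ones) stood in 12.8% of the windows and in 5 of the 7 genes, Hspa1a, Hspa1b, Hspd1, Hspe1 and Hsph1. The element of Hsph1, which encodes an exchange factor of HSP70, lies at chr5:149636362-149636369 and is in capitals within the stretch chr5:149636351-149636380, read on the minus strand.
Hsph1: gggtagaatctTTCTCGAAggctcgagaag

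Hspa1a (chr17:34969359-34972156) and Hspa1b (chr17:34956429-34959238), both on the minus strand, encode the stress-inducible HSP70. Their upstream sequences were 98.8% identical over 250 bases. The last 120 bases before each start, at chr17:34972157-34972276 and chr17:34959239-34959358, differed at 1 base, and a 2-unit heat shock element is in capitals. They are shown for their likeness. Probes were not matched to either transcript here, so which of the pair a probe set reads was not tested.
Hspa1a: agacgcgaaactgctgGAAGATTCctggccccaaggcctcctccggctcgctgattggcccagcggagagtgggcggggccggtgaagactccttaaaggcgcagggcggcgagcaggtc
Hspa1b: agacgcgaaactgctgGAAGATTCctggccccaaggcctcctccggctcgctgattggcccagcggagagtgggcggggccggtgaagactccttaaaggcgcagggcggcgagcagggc

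Each array had been scaled by the authors, and median signals ran from 54.8 to 61.9. The replicate 1 arrays of both groups lay apart from the other 4, at −37.2 and −24.9 on a first principal component that held 58% of the variance, against 12 to 18.6. Of the B lineage markers, 4 of 10 passed the gene filter, with Ptprc, which other blood cells also express, at a mean signal of 9665, Cd79b at 454 and Igll1 and Pax5 at 73.6 and 69.7, while Cd79a, Ebf1, Rag1, Vpreb1, Blnk and Il7r were below it. Some markers of other blood cells were bright. Of the erythroid and megakaryocyte markers 3 of 5 passed (Itga2b, Gata1 and Klf1, summed signals of all 5 from 7464 to 14418), while Hba-a1 and Pf4 were below the filter. Of the mast cell markers 4 of 8 passed (summed signals of all 8 from 8271 to 15951). These were Gata2 at 7652, Fcer1a at 1901, Cma1 at 188 and Ms4a2 at 135, while Hdc, Cpa3, Mcpt8 and Kit were below the filter. Of the T and NK cell markers 1 of 6 passed, and of the fibroblast markers 1 of 5. The summed signal of 10 myeloid markers, 8 of them above the filter, was 2870 to 3693 in controls and 7955 to 12759 with NCOR1-LYN. The brightest of them were Ngp, Prtn3 and Epx, at mean signals of 2631, 2407 and 980. Csf1r ran only from 103 to 188 over all arrays, and Elane and Itgam were below the filter. The part of these markers in the chaperone values was not tested.

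No tested chaperone gene of the set was called between NCOR1-LYN and control cells in limma. Of the 7 genes tested 0 passed an adjusted p of 0.05, 0 had an unadjusted p under 0.05, and adjusted p was 0.999 for each of them, where 0.0824% of all 10916 genes passed. With the replicate number as a block 0 of the 7 passed as well, with 0 at an unadjusted p under 0.05, while 0.824% of all genes did. The median log2 difference of the 7 was 0.01, beside −0.01 over all genes tested, and the differences ran from −0.21 (Dnajb1) to 0.17 (Hspd1). All differences are on the log2(signal + 64) scale, where 1 unit is a doubling of signal + 64. On it the 95% intervals without a block bounded a rise at 1.03-fold for Dnajb1 and at 1.42-fold for Hspd1. They bounded a fall at 1.37-fold for Dnajb1 and at 1.47-fold for Hsph1. With each probe set tested on its own, 0 of 16 passed with or without the block, where 0.725% and 0.0334% of all probe sets did, and 2 of 16 had groups that did not overlap, where 10.8% of all probe sets tested did.

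**Figure D1:**
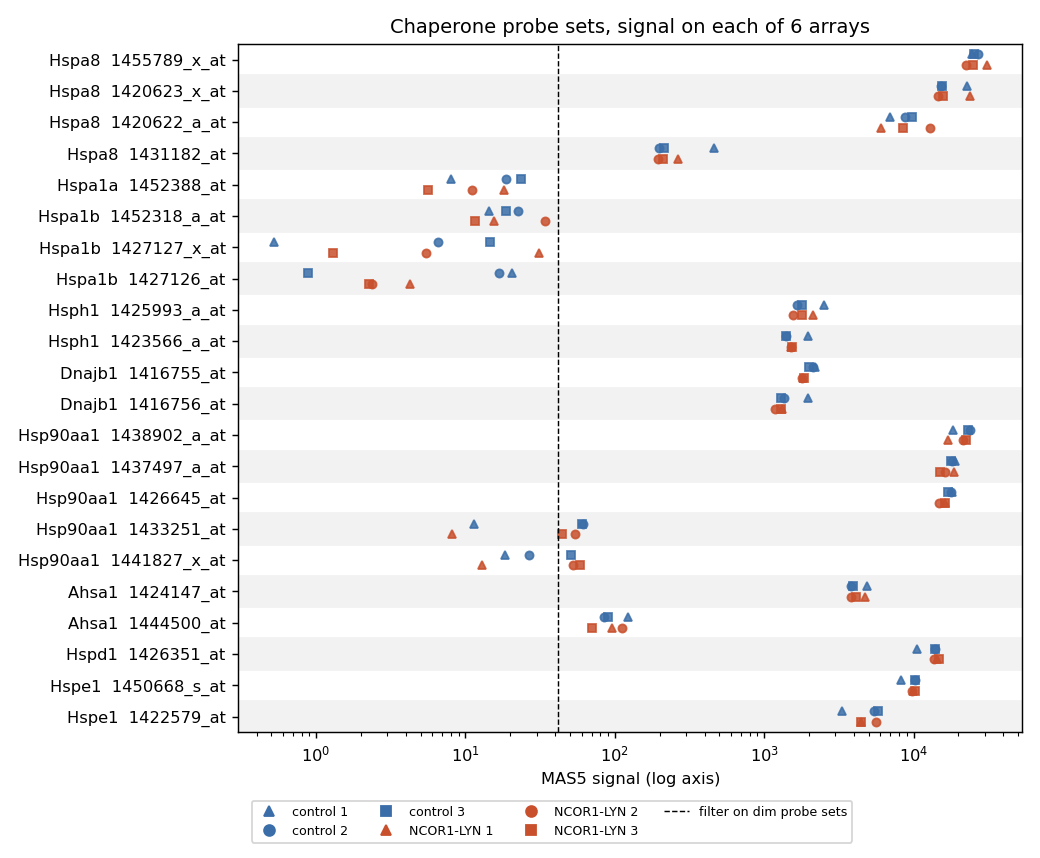
MAS5 signal (log axis) of the 22 chaperone probe sets on each of 6 arrays, with controls in blue, NCOR1-LYN in orange and the marker giving the replicate number; the dashed line is the filter at a signal of about 41.6. The probe sets of Hspa1a and Hspa1b lie below the line on all arrays, and the triangles of replicate 1 lie at 22890 and 23852 for Hspa8 in 1420623_x_at, above the other arrays at 14613 to 15756.

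**Figure D2:**
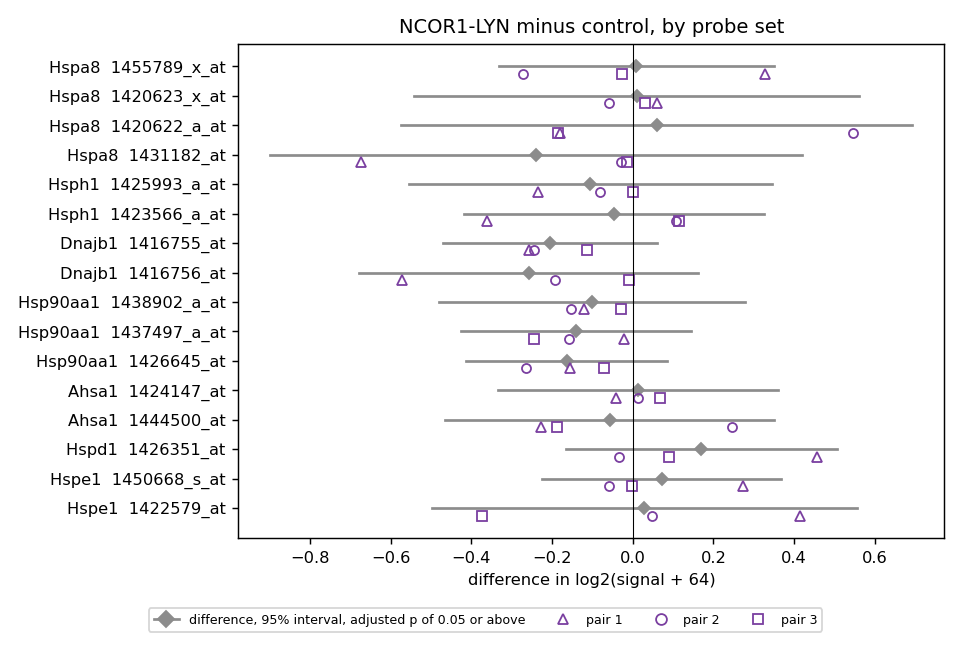
Difference of NCOR1-LYN minus control in log2(signal + 64) for the 16 probe sets tested, as diamonds with 95% intervals from limma, and the differences of the 3 same-numbered pairs as open symbols. All 16 intervals include 0, and the 2 probe sets of Dnajb1 and the 3 bright ones of Hsp90aa1 have all their pairs below 0.

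Hspa8 encodes the constitutive HSP70 of the cytosol, also known as HSC70. Its brightest probe set (1455789_x_at) had signals of 24633, 26984 and 25371 in control replicates 1, 2 and 3 and of 30950, 22317 and 24897 with NCOR1-LYN. The groups overlapped, with the highest value in NCOR1-LYN replicate 1 and the lowest in NCOR1-LYN replicate 2, and the log2 difference was 0.01 ± 0.15 (SE, n = 3 per group, limma adjusted p = 0.999). The 3 other probe sets of Hspa8 had log2 differences of 0.01, 0.06 and −0.24, all with overlapping groups. The dimmest of them, 1431182_at, had 463 in control 1 and 194 to 266 in the other 5 arrays.

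The stress-inducible HSP70 genes Hspa1a and Hspa1b gave no signal above the filter. Hspa1a was read by 1 probe set, at 7.9, 18.6 and 23.6 in controls and 18.2, 11.1 and 5.6 with NCOR1-LYN. The 3 probe sets of Hspa1b ran from 0.52 to 34 over all 6 arrays. On every array and probe set these 2 genes thus stayed below the level at which probe sets were tested, and no difference between groups is given for them. In MAS5 such low values lie near background and are noisy, and a low signal of a probe set does not show that the RNA was absent.

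The partners that drive the HSP70 cycle were read well above the filter. Dnajb1, a J protein of the cytosol, had 2192, 2128 and 2002 in controls and 1824, 1785 and 1847 with NCOR1-LYN in its brighter probe set (1416755_at). Here each NCOR1-LYN array was below every control array, and the log2 difference of −0.21 ± 0.11 did not pass in limma (unadjusted p = 0.0981, adjusted p = 0.999, and adjusted p = 0.473 with the block). The second probe set, 1416756_at, had 1980, 1353 and 1299 in controls and 1311, 1175 and 1289 with NCOR1-LYN, so its groups overlapped. All 3 pairs were below 0 in both probe sets, by −0.26, −0.25 and −0.11 in the first and −0.57, −0.19 and −0.01 in the second.

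Hsph1, the HSP110 exchange factor whose element is printed above, had 2515, 1660 and 1798 in controls and 2127, 1565 and 1800 with NCOR1-LYN in its brighter probe set (1425993_a_at). Its log2 difference was −0.11 ± 0.19, and the pairs were at −0.24, −0.08 and 0.00. Replicate 1 was the highest array of each group in this probe set. The second, 1423566_a_at, had 1959, 1392 and 1408 in controls and 1511, 1503 and 1531 with NCOR1-LYN, so there control 1 was the highest array and NCOR1-LYN 1 did not stand apart.

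Hsp90aa1 encodes the inducible form of cytosolic HSP90 and was read by 3 bright and 2 dim probe sets. The probe set that stood for the gene (1438902_a_at) had 18388, 23848 and 23045 in controls and 16899, 21436 and 22577 with NCOR1-LYN, a log2 difference of −0.10 ± 0.16. The groups overlapped, and the lowest array of each was replicate 1. In 1426645_at the controls had 17972, 17911 and 17020 and the NCOR1-LYN arrays 16138, 14906 and 16200, with no overlap, and the log2 difference was −0.16 ± 0.11 (limma adjusted p = 1 over probe sets). The 3 bright probe sets were below their control in all 3 pairs. In all, 6 of the 16 tested probe sets were lower in all 3 pairs, where 16.9% of all probe sets tested were, and 0 were higher in all 3 pairs, where 17.5% were. The 6 come from Dnajb1, Hsp90aa1 and the dimmest tested probe set of Hspa8, and probe sets of a gene read the same RNA.

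Ahsa1 encodes AHA1, the cochaperone that speeds ATP hydrolysis by HSP90. Its bright probe set (1424147_at) had 4895, 3802 and 3903 in controls and 4759, 3837 and 4092 with NCOR1-LYN, a log2 difference of 0.01 ± 0.15 with pairs at −0.04, 0.01 and 0.07. The second, 1444500_at, had signals of 70.6 to 123 and a log2 difference of −0.06.

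Hspd1, the HSP60 gene, had 10492, 13982 and 13848 in controls and 14431, 13645 and 14732 with NCOR1-LYN in its single probe set (1426351_at). Control 1 was the lowest array, apart from the other 5, which ran from 13645 to 14732, and the log2 difference was 0.17 ± 0.14. Hspe1, the HSP10 gene, had 8209, 10191 and 10161 in controls and 9943, 9784 and 10152 with NCOR1-LYN (1450668_s_at), with control 1 again the lowest, and a log2 difference of 0.07 ± 0.12. Its second probe set, 1422579_at, had 3309, 5425 and 5788 against 4432, 5606 and 4450. Over the 6 arrays the log2 values of Hspd1 and Hspe1, the genes with the shared element, correlated at r = 0.97, the highest value of all pairs of the 7 genes. The same arrays carry the shift of replicate 1, and the correlation is given as a description.

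In the wider chaperone network few genes were called between groups, and which ones depended on the fit. In limma with all 6 arrays weighted equally and no block, 0 genes passed in any of its lists. These held 24 tested genes of the HSP70 family, J proteins and exchange factors, 18 HSP90 cochaperones and 12 HSF factors and HSF1 targets. There were 15 genes for TRiC chaperonin and prefoldin subunits and a TRiC cofactor, and 13 for mitochondrial chaperones and proteases. The last lists held 18 ER chaperones and stress genes and 31 proteasome subunits. Some genes are on more than 1 list. List medians ran from −0.003 (ER) to 0.06 (HSP90 cochaperones), and 1 gene in each of the HSP70 and HSP90 partner lists had an unadjusted p under 0.05. With the block 1 of the 124 genes of these lists was called, Dnajb4, a J protein, where 0.824% of all genes were. It had 2167, 1306 and 1304 in controls and 1254, 822 and 789 with NCOR1-LYN, a log2 difference of −0.69 ± 0.10 (SE in the blocked fit, limma adjusted p = 0.0336, and 0.91 without the block), and the groups did not overlap. Its pairs were at −0.76, −0.63 and −0.68. Dnajb2, another J protein, named after its values were seen, had the opposite sign, with a log2 difference of 0.49, pairs at −0.06, 0.81 and 0.71 and an adjusted p of 0.398 in the blocked fit. With array weights Dnajb4 (adjusted p = 0.00923, lower) and Dnajb2 (0.0119, higher) were called in limma, where 502 of 10916 genes were. Without both replicate 1 arrays 7 of the 124 were called, where 744 of 10916 genes were, so the count rose with that over all genes. The largest differences in the other lists were not called, with −0.31 for the small heat shock protein gene Hspb1, −0.34 for Unc45a, an HSP90 cochaperone of myosin folding, 0.15 for Pdcl3, a cofactor of TRiC, 0.33 for Hspa9, the mitochondrial HSP70, 0.30 for Ddit3, the stress transcription factor CHOP, and 0.20 for the proteasome ATPase gene Psmc2. Hspb1 was dim, at signals of 71.7 to 152.

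The probe sets that stood for Hsph1, Ahsa1 and Hsp90aa1 differed with the replicate number. In a fit of replicate 1 against replicates 2 and 3 at equal group, these 3 of the 7 genes passed in limma, where 34.4% of all genes did, so the set moved about as often as genes at large. Hsph1 was higher in replicate 1 by 0.43 ± 0.10 on the log2 scale (adjusted p = 0.0122) and Ahsa1 by 0.30 ± 0.08 (0.018), while Hsp90aa1 was lower, with −0.36 ± 0.07 (0.00659). The second probe sets of Hsph1 (1423566_a_at) and Ahsa1 (1444500_at) had 0.23 and 0.19 and did not pass in limma (adjusted p of 0.164 and 0.425 over probe sets). Without control 2, control 3 or NCOR1-LYN 2, Ahsa1 did not pass (adjusted p of 0.073, 0.0703 and 0.0521), and 2451 to 2720 of all genes passed in place of 3752. Without NCOR1-LYN 1, 5 of the 7 genes passed, among them Hspd1 (−0.41) and Hspe1 (−0.31) as lower, where 4567 of all 10916 genes did. Without control 1 Hspa8 passed as higher (0.39), where 3973 of all genes did. The 3′ to 5′ signal ratios of the beta-actin and Gapdh control probe sets were lowest in the 2 replicate 1 arrays, at 1.17 and 1.15 against 1.19 to 1.24 for beta-actin and at 0.69 and 0.68 against 0.70 to 0.74 for Gapdh, and their part in the shift was not tested.

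Probe sets of one gene went opposite ways with the replicate number. For Hspa8, 1420623_x_at had 22890 and 23852 in the replicate 1 arrays and 14613 to 15756 in the other 4, and 1431182_at was higher in replicate 1 too. By contrast 1420622_a_at had 6912 and 6091 in replicate 1 and 8555 to 12910 in the others. The log2 differences were 0.61 ± 0.07 (limma adjusted p = 7.46e-04 over probe sets), 0.64 ± 0.16 (0.0189) and −0.60 ± 0.16 (0.0214). For Hsp90aa1, 1438902_a_at was lower in replicate 1, with −0.36 ± 0.07 (0.00557), while 1437497_a_at and 1426645_at had 0.16 and 0.05 and did not pass. For Hspe1, the dimmer 1422579_at was lower in replicate 1, with −0.46 ± 0.14 (limma adjusted p = 0.0395 over probe sets). The brighter 1450668_s_at had −0.16 and did not pass (0.209). Over the 16 probe sets, 4 were higher and 3 lower in replicate 1 past the threshold, where 33% of all probe sets were called. The call of lower Hsp90aa1 in replicate 1 therefore belongs to 1 of its 3 bright probe sets, those of Hsph1 and Ahsa1 to 1 of 2 each, and levels of Hspa8 and Hsp90aa1 in replicate 1 are uncertain.

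**Figure D3:**
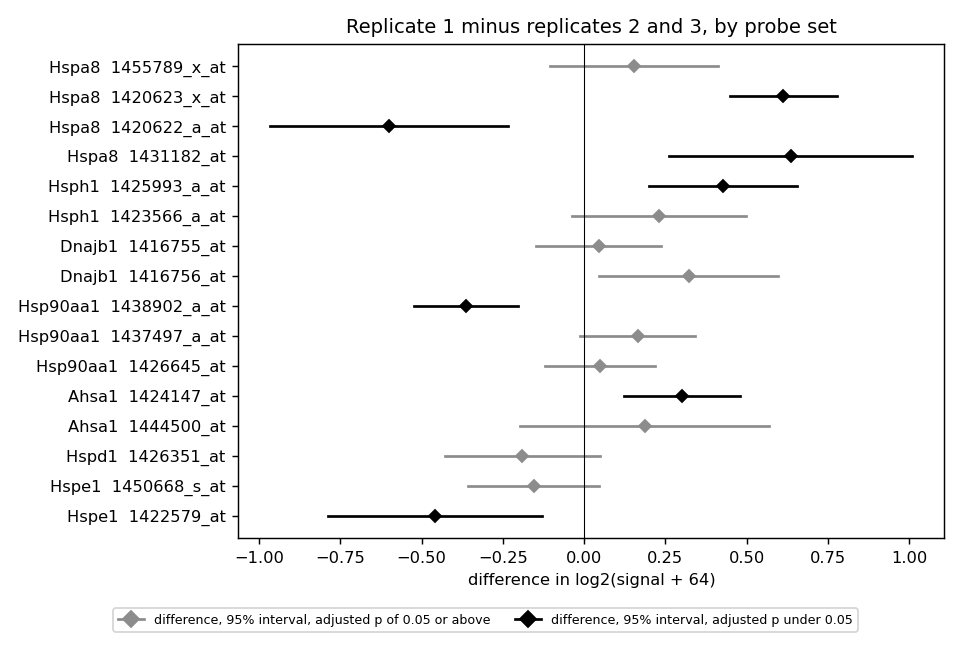
Difference of replicate 1 minus replicates 2 and 3 in log2(signal + 64), at equal group, for the 16 probe sets tested, with 95% intervals from limma; black marks an adjusted p under 0.05. The 3 called probe sets of Hspa8 lie at 0.61, 0.64 and −0.60, on both sides of 0.

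Among the other lists, 9 of the 15 TRiC and prefoldin genes and 15 of the 31 proteasome genes were lower in replicate 1. Of the 18 ER chaperones and stress genes 8 were lower, where 14.9% of all genes were. In these lists 0, 1 and 1 genes were higher, where 19.4% of all genes were. The TRiC subunits Cct4, Cct3 and Tcp1, chosen after their values were seen, had −0.49, −0.43 and −0.39, and Pdcl3 had −0.64. The HSP70 family and its partners went both ways, with 8 higher and 6 lower of 24. Here Dnajb4 was higher in replicate 1, by 0.65, and Hspa4l, an HSP110 relative of Hsph1 chosen after its values were seen, lower, with −0.76.

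The difference between NCOR1-LYN and control was itself not alike in the pairs for 2 of the 7 genes, each by its brightest probe set. Hspa8 had pairs of 0.33, −0.27 and −0.03 and Hspd1 of 0.46, −0.04 and 0.09, and the replicate 1 pair exceeded the mean of the others by 0.48 ± 0.13 and 0.43 ± 0.11 (limma adjusted p of 0.045 and 0.0372, with 12% of all genes called). For Hspa8 this holds for 1 of 4 probe sets. The other 3 had pair differences of 0.07 (1420623_x_at), −0.36 (1420622_a_at) and −0.65 (1431182_at), with adjusted p of 0.767, 0.507 and 0.138 in limma over probe sets, so 2 went the opposite way and the direction for the gene is uncertain. Hspd1 has a single probe set. Hspe1 had pairs of 0.27, −0.06 and 0.00 and a difference of 0.30 ± 0.10 that did not pass (0.0883). Second probe sets of Hspe1 (1422579_at), Hsph1 (1423566_a_at) and Dnajb1 (1416756_at) had differences of 0.58, −0.47 and −0.47. None of them passed in limma over probe sets (adjusted p of 0.0908, 0.0573 and 0.085). For Hspd1 and Hspe1 the array that stood apart was control 1. For Hspa8 NCOR1-LYN 1 was the highest array (30950) and NCOR1-LYN 2 the lowest (22317). The calls of Hspa8 and Hspd1 did not hold when probe sets were tested on their own (adjusted p of 0.0555 and 0.0512, with 6.97% of all probe sets called), without the filter on dim genes (0.182 and 0.13) or without control 2 (0.201 and 0.155) or control 3 (0.113 and 0.134), and that of Hspa8 not without NCOR1-LYN 2 (adjusted p = 0.0505). Without NCOR1-LYN 3, Hspe1 passed as well (adjusted p = 0.0489).

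**Figure D4:**
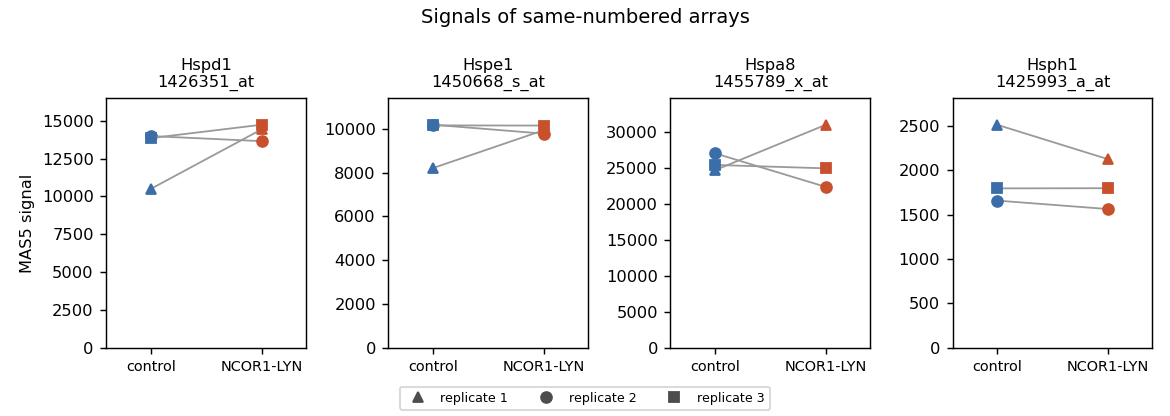
MAS5 signals (linear axes from 0) of Hspd1, Hspe1, Hspa8 and Hsph1 in the 6 arrays, with lines joining arrays of the same replicate number. Control 1 is the lowest array for Hspd1 (10492) and Hspe1 (8209), NCOR1-LYN 1 the highest for Hspa8 (30950), and both replicate 1 arrays are the highest for Hsph1 in 1425993_a_at (2515 and 2127).

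Some other mitochondrial chaperone and protease genes had larger differences of this kind. The median over the list was 0.27, beside −0.02 over all genes tested. Of 13 tested, 3 had a greater and 1 a smaller difference in the replicate 1 pair, where 5.22 and 6.82% of all genes did. Hspa9 had 6846, 8427 and 8286 in controls and 14100, 8903 and 7562 with NCOR1-LYN, so NCOR1-LYN 1 stood above all other arrays and the pair difference was 1.06 ± 0.14 (limma adjusted p = 0.00191). Lonp1, the matrix protease, and Dnaja3, the J protein of Hspa9, had pair differences of 1.87 ± 0.12 and 0.90 ± 0.14, and Hscb, a J protein of iron-sulfur cluster assembly, −0.79 ± 0.15 (all 3 chosen after their values were seen). Of the 18 ER chaperones and stress genes, 8 had a greater and 0 a smaller difference in the replicate 1 pair, among them Ddit3 with 2.38 ± 0.18.

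The 7 genes had no common pattern over the arrays. Their pairwise correlations ran from −0.91 (Ahsa1 with Hsp90aa1) to 0.97, with Ahsa1 and Hsph1 at 0.95. The genes most like the mean of the 7, each centred and scaled, were Cct7, Ewsr1, Slc25a47, Upp1 and Zfp263, with r from 0.95 to 0.98 over 6 arrays. They were picked for the highest r among all tested genes outside the 7, so a high r was built into the choice. In Cct7 the signals ran only from 11557 to 12572, so its likeness rests on small differences. Slc25a47 was dim, at signals of 52.6 to 83.5.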

How the data were processed

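Per the submitters' processing notes the authors made the deposited probe set intensities with MAS5, version not given in the sources used here. The values show that the mean of each array, with 2% of its probe sets trimmed from either end, equalled 500. MAS5 corrects for background and mismatch probes, so dim signals are noisy, and no detection calls were used. Intensities were used as log2(signal + 64), which understates changes of dim genes. Of 45101 probe sets, 34945 had exactly 1 gene symbol, 932 several and 9160 none, and 64 were controls. The brightest probe set on average stood for its gene, and a filter at the 40th percentile of mean log2 values, near a signal of 47, kept 10916 genes. Single probe sets were tested in a separate fit over 20967. Tests were limma (3.58.1, R 4.3.3), lmFit and eBayes with an intensity trend, two-sided, Benjamini-Hochberg over all features, threshold 0.05, with 4 residual degrees of freedom for NCOR1-LYN against control, 2 with the block or the pair difference and 3 for replicate 1. The fits were run on simulated data with independent noise and added changes of 2-fold or 4-fold. Smaller differences, such as those of the chaperone genes, were not simulated.

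Deviations from group means correlated across genes at 0.62, 0.41 and 0.44 between arrays of the same number, and the numbers were treated as pairs, though control 3 correlated at 0.48 with NCOR1-LYN 2. Named genes were the listed members, up to 4 called genes of each other list or else that with the largest change, and the 5 genes most like the members' mean. The members, lists and tests were chosen with earlier results of these data known. Probe set suffixes _x_at and _s_at mark probes that can read related transcripts.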

Additional observations from a re-analysis of the deposited data

Results flagged for a closer look

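The NCOR1-LYN difference of the replicate 1 pair exceeded that of the other pairs by 0.48 for Hspa8, in 1455789_x_at alone, and by 0.43 for Hspd1 on the log2 scale. Both were marked because a test of the difference between the pairs, an interaction term in limma, passed over genes with all 6 arrays (adjusted p of 0.045 and 0.0372). Neither passed in limma over probe sets (adjusted p of 0.0555 and 0.0512) or without the filter on dim genes (0.182 and 0.13). The 3 other probe sets of Hspa8 had 0.07, −0.36 and −0.65 and did not pass over probe sets either.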

How the results depend on the processing

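The count of chaperone genes called between NCOR1-LYN and control was 0 under every alternative run, the replicate block (0), array weights (0) and the fit without both replicate 1 arrays (0) included. For the other chaperone lists it went from 0 of 124 to 1 with the replicate block (Dnajb4; 90 of 10916 genes in all), 2 with array weights (Dnajb2 and Dnajb4; 502 in all) and 7 without both replicate 1 arrays (2 higher, Dnajb2 and Hspa4l, and 5 lower, Dnajb4, Dnajb6, Ddit3, Hspa5 and Lonp1; 744 in all, against 9 at first). Leaving out single arrays left this count at 0. For replicate 1 against the others, 3 genes became 5 with every probe set tested on its own and 2 to 5 when single arrays were left out, while calls over all genes ran from 2451 to 4567. For the pair difference, 2 genes became 0 without the filter (494 of 18193 genes in all) and 0 over probe sets (1462 of 20967), and 0 to 3 when arrays of replicates 2 and 3 were left out, an alternative chosen after seeing the data.

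Signs of uncalled differences near 0 turned in some settings. For NCOR1-LYN minus control, single arrays left out gave −0.12 to 0.11 for Hspa8, −0.031 to 0.12 for Hspe1, −0.22 to 0.070 for Hsph1, −0.074 to 0.13 for Ahsa1 and −0.22 to 0.025 for Hsp90aa1. Without both replicate 1 arrays Hspa8 had −0.15 and Hspe1 −0.030, and with array weights −0.13 and −0.020. For replicate 1 against the others, Hspd1 ran from −0.41 to 0.025 and Hspa8 from −0.087 to 0.39 with single arrays left out. After quantile normalization Hspe1 had 0.026 against −0.16, Hspd1 −0.015 against −0.19 and Ahsa1 0.42 against 0.30 in this comparison. The pair difference of Hsp90aa1 ran from −0.067 to 0.0073 with single arrays of replicates 2 and 3 left out, and was −0.081 after quantile normalization. The cause was not tested. With 3 arrays a group, small changes of these genes are not detectable.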
